A study of Homo sapiens with 2 samples.

Results

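Transcript levels of 38 autophagy genes were compared in OCI-AML3 cells after 24 h in 50 nM omipalisib or in DMSO. The genes are from the autophagosome-forming machinery, the ATG8 proteins, the cargo receptors and the transcription factors of the TFEB family. They were chosen by name, with earlier results of these data known. All 38 were found by symbol among the 60623 genes in the files. OCI-AML3 is an established human acute myeloid leukaemia line, known to carry mutant NPM1, labelled as wild type in genotype and of bone marrow origin. Both groups are this line, grown in MEM alpha with 20% serum. Omipalisib (GSK2126458) is a small-molecule inhibitor of class I phosphoinositide 3-kinases and of mTOR, and DMSO is its vehicle. There was 1 library of bulk RNA per group, so no value here has a replicate check and no p-value is given.

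Macroautophagy encloses cytoplasm in a double membrane, the autophagosome, and delivers it to the lysosome. The ULK1 kinase complex starts the process, a class III PI3K complex marks the site with the lipid PI3P, PI3P-binding proteins and lipid carriers extend the membrane, and 2 ubiquitin-like conjugation reactions attach ATG8 proteins (LC3 and GABARAP) to it. Cargo receptors bind both ATG8 and tagged cargo. In fed cells mTOR complex 1 restrains the pathway by phosphorylating ULK1, ATG13 and TFEB, and TFEB, TFE3 and MITF are transcription factors that activate lysosomal and autophagy genes. Messenger RNA levels show neither these phosphorylations nor the rate of autophagy.

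The libraries held 26367832 counted fragments in DMSO and 22599164 in omipalisib, and 15660 genes passed a minimum of 20 counts over both libraries and are called the genes tested, meaning those compared between the libraries. Counts are printed as deposited, and since the omipalisib library is the smaller one, equal counts mean a log2 ratio above 0. Myelomonocytic markers reached 1 CPM (counts per 1000000 after scaling) for 9 of 10 genes in DMSO and 10 of 10 in omipalisib. Lymphoid markers reached it for none of 5 in either library, with 3 at 0 in both, and among 6 stromal and epithelial markers COL1A2 alone did so, at 96.7 and 68.0 CPM. PPBP alone among 5 erythroid and megakaryocyte markers reached 1 CPM in DMSO, and none did so in omipalisib, with 3 of the 5 at 0 in both. The summed level of the myelomonocytic list was 1573 CPM in DMSO and 1738 CPM in omipalisib, and its part in the values below was not tested. Within that list most genes were higher in omipalisib by the calling rule given below: CD33, SPI1, PTPRC, CEBPA, HOXA9, MEIS1 and CSF1R, the last at 32.2 and 101 CPM. LYZ alone was lower, at 321 and 246 CPM, and MPO and ITGAM were neither.

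The autophagy genes differed little in level, and those that differed were more often higher than lower in omipalisib. Each log2 ratio is omipalisib over DMSO after scaling, with a 95% interval that covers counting error only, and a gene is called higher or lower where that interval excludes 0. All 38 genes passed the count minimum, with summed counts from 155 to 8564. Of these, 17 (44.7%) were higher, against 26.1% of all genes tested. A further 6 (15.8%) were lower, against 28.6% of all genes tested, and for 15 the interval included 0. Among the 10437 genes with summed counts in the same range, 28.8% were higher and 34% lower. The median log2 ratio of the 38 genes was 0.10 (interval of the median −0.04 to 0.28), against 0.0029 over all genes tested and −0.018 over the genes of like count. The interval of the median reflects the spread across genes, which are not replicates, and does not measure the error of a treatment effect. In sum the 38 genes held 1931 CPM in DMSO and 2169 CPM in omipalisib, a difference of 0.17 (0.15 to 0.19) on the log2 scale. Most members lay within 1.5-fold either way, 92.1% of them, against 81.0% of all genes tested and 88.5% of those of like count. In bulk RNA, fewer cells with a transcript and less transcript per cell cannot be told apart.

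**Figure D1:**
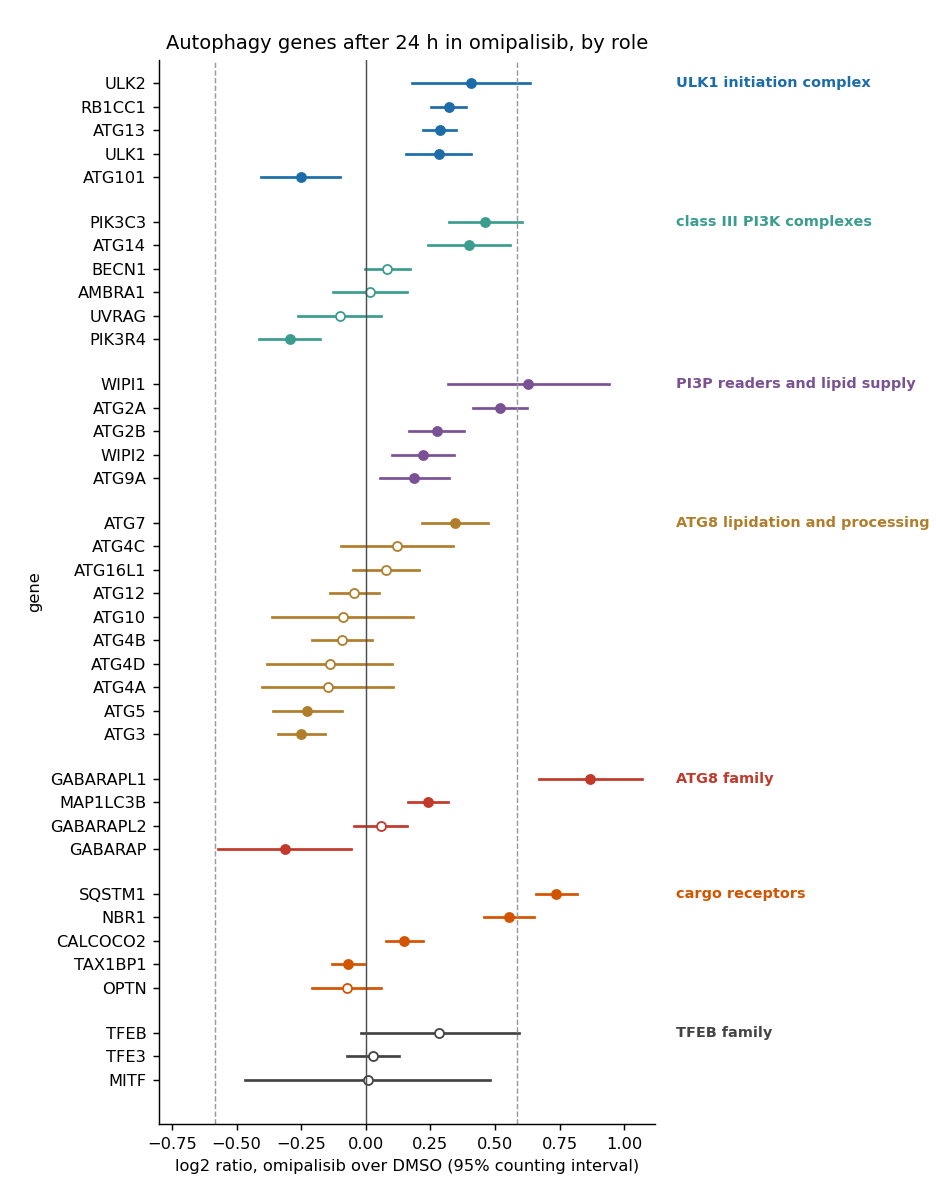
Log2 ratio of omipalisib over DMSO (horizontal axis) for the 38 genes (vertical axis), grouped by role, with 1 library per treatment. Points are ratios, lines are 95% counting intervals, filled points have intervals that exclude 0, and dashed lines mark a ratio of 1.5 either way; GABARAPL1 and SQSTM1 lie farthest to the right and no gene passes the left dashed line.

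By a rule of size, a ratio of at least 1.5 with an interval excluding 1, 3 of the 38 genes (7.89%) were higher, against 9.58% of all genes tested. None was lower by that rule, against 4.76%. The 3 genes were GABARAPL1, SQSTM1 and WIPI1, with ratios of 1.82, 1.67 and 1.54. NBR1 at 1.47 and ATG2A at 1.43 lay just under the threshold. No member reached a ratio of 2 in either direction, which 4.02% of all genes tested did upward and 1.29% downward. The share of members at 1.5-fold or more was thus near the background, while the counts of small differences leaned upward.

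**Figure D2:**
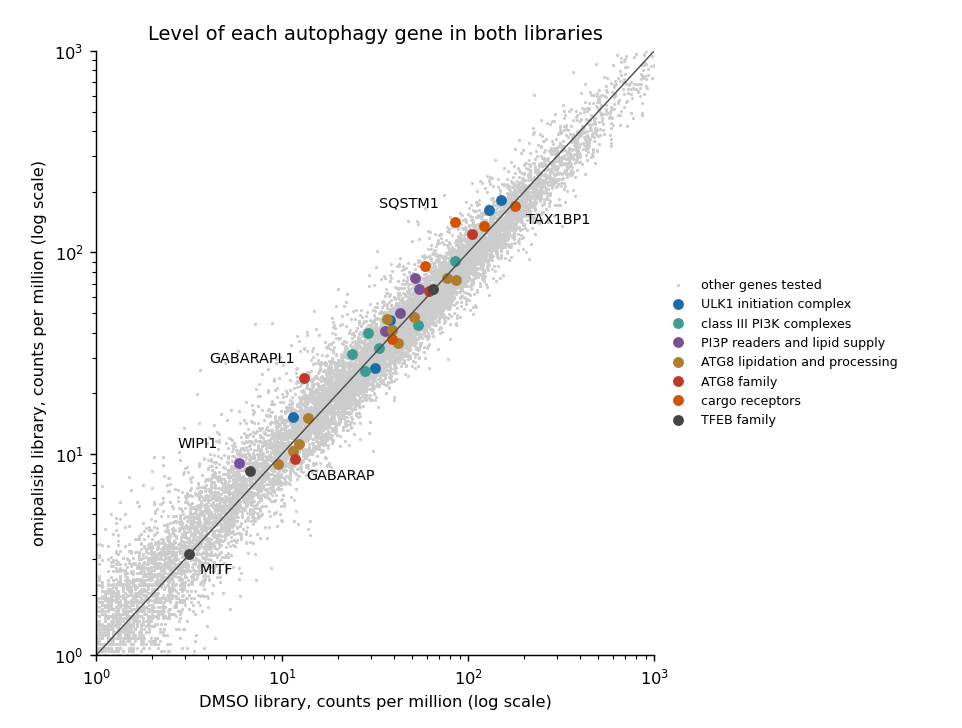
Level in the omipalisib library (vertical axis) against the DMSO library (horizontal axis), in CPM on log axes, for the 38 genes in colour by role and the other genes tested in grey, between 1 and 1000 CPM. The line marks equal levels, and the named genes run from MITF at 3.16 and 3.18 CPM to TAX1BP1 at 179 and 171 CPM.

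Initiation genes were higher in 4 of 5, and the exception was the small scaffold gene ATG101. For this and each other role group, the background was 26.1% higher and 28.6% lower among all genes tested. The group's log2 ratios ran from −0.25 to 0.41 with a median of 0.29. ULK1 (chromosome 12, 131894622 to 131923150, GRCh38), the kinase that starts autophagosome formation, had 988 counts in DMSO and 1065 in omipalisib, for a scaled log2 ratio of 0.28 (0.16 to 0.41). Its relative ULK2 had 297 and 349 counts, for a scaled log2 ratio of 0.41 (0.18 to 0.63). The difference between both kinases, ULK1 minus ULK2, was −0.12 (−0.38 to 0.13), within counting error, and ULK1 held 76.9% of their joint counts in DMSO and 75.3% in omipalisib. ATG13, the regulatory subunit that mTOR complex 1 phosphorylates, had 3873 and 4188 counts, for a scaled log2 ratio of 0.29 (0.22 to 0.35). RB1CC1, which encodes the scaffold FIP200, had 3358 and 3718 counts, for a scaled log2 ratio of 0.32 (0.25 to 0.39). ATG101, the partner that stabilises ATG13, was lower, with 821 and 611 counts, for a scaled log2 ratio of −0.25 (−0.41 to −0.10). ATG13 and ATG101, partners in 1 complex, thus went in opposite directions, with ATG13 minus ATG101 at 0.54 (0.38 to 0.70). ULK1, ULK2 and RB1CC1 went the same way as ATG13, and their differences from it were not taken. At 21.3 CPM per kilobase in DMSO and 26.0 in omipalisib, ATG13 had the highest level per length of the 38 genes in both libraries. Differences between members compare counts within the libraries and do not depend on how the libraries were scaled.

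The class III PI3K complex was split. Of its 6 genes, 2 were higher, 1 was lower and 3 had intervals that included 0, with a median of 0.05. PIK3C3, the catalytic subunit VPS34, had 751 and 917 counts, for a scaled log2 ratio of 0.46 (0.32 to 0.60). PIK3R4, the pseudokinase subunit VPS15 that binds it, had 1392 and 1006 counts, for a scaled log2 ratio of −0.29 (−0.41 to −0.18). The lipid kinase and its obligate partner thus differed by 0.76 (0.57 to 0.94). ATG14 directs the complex to autophagosome formation, and UVRAG replaces it in the complex that acts on endosomes. ATG14 had 613 and 717 counts, for a scaled log2 ratio of 0.40 (0.24 to 0.56), whereas UVRAG had 719 and 594 counts and −0.10 (−0.26 to 0.06). The difference ATG14 minus UVRAG was 0.50 (0.28 to 0.72). BECN1, the shared scaffold Beclin 1, had 2214 and 2080 counts, and its scaled log2 ratio was 0.08 (−0.0034 to 0.17); with scaling by total counts it was 0.13 and its interval lay above 0. AMBRA1, which couples Beclin 1 and ULK1 to ubiquitin ligases, had 861 and 772 counts and 0.02 (−0.13 to 0.16).

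All 5 genes for PI3P readers and membrane supply were higher, against 26.1% of all genes tested, with log2 ratios from 0.19 to 0.63 and a median of 0.27. WIPI1, a PI3P-binding propeller protein, had the largest ratio of the group on the fewest counts, 151 and 207, for a scaled log2 ratio of 0.63 (0.32 to 0.94). With the DMSO library thinned to the depth of the other, WIPI1 had 0.53 (0.21 to 0.85) and left the 1.5-fold class. WIPI2, the propeller protein that recruits ATG16L1, had 1114 and 1152 counts, for a scaled log2 ratio of 0.22 (0.10 to 0.34). ATG2A and ATG2B encode bridge-like proteins that carry lipid into the growing membrane. ATG2A had 1343 and 1706 counts, for a scaled log2 ratio of 0.52 (0.41 to 0.62), and ATG2B had 1408 and 1509 counts, 0.27 (0.17 to 0.38). The difference between these paralogues, ATG2A minus ATG2B, was 0.25 (0.10 to 0.39), and ATG2A held 48.8% of their joint counts in DMSO and 53.1% in omipalisib. ATG9A, the membrane-embedded scramblase, had 928 and 937 counts, for a scaled log2 ratio of 0.19 (0.06 to 0.32). For 38.8% of its exonic length ATG9A overlaps another annotated gene on its strand, which itself had 6 and 5 counts, so its level is uncertain.

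Genes of ATG8 lipidation and processing had the lowest median of the groups, −0.09. Of the 10 genes 1 was higher, 2 were lower and 7 had intervals that included 0, and their summed level was lower by log2 −0.06 (−0.10 to −0.01). The shares called higher and lower were both below those of all genes tested, 26.1% and 28.6%. ATG7, the E1-like enzyme that activates both ATG12 and ATG8, was the higher gene, with 954 and 1074 counts, for a scaled log2 ratio of 0.34 (0.22 to 0.47). ATG3, the E2-like enzyme that receives ATG8 from ATG7, had 2238 and 1669 counts, for a scaled log2 ratio of −0.25 (−0.34 to −0.16). ATG5, which is joined to ATG12 and then helps ATG3, had 1082 and 820 counts, for a scaled log2 ratio of −0.23 (−0.36 to −0.09). ATG3 and ATG5 thus went in the opposite direction to ATG7: ATG3 minus ATG7 was −0.59 (−0.75 to −0.44) and ATG5 minus ATG7 was −0.57 (−0.75 to −0.39). ATG12 had 1994 and 1714 counts, for a scaled log2 ratio of −0.04 (−0.14 to 0.05). ATG10, the E2-like enzyme of ATG12, had 246 and 205 counts, and ATG16L1, which completes the ATG12 conjugate, had 1015 and 950. Their log2 ratios were −0.09 (−0.36 to 0.18) and 0.08 (−0.05 to 0.21).

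The ATG4 proteases trim ATG8 proteins before lipidation and release them afterwards. For all 4 the interval included 0, except that ATG4B was lower, at −0.13, with DESeq2 size factors, and among the 6 pairs of them no difference exceeded counting error. ATG4B, the protease with most counts, had 1318 and 1097, for a scaled log2 ratio of −0.09 (−0.21 to 0.03). ATG4A had 295 and 236 counts, for a scaled log2 ratio of −0.15 (−0.40 to 0.10), and ATG4D had 318 and 256 counts, −0.14 (−0.38 to 0.10). ATG4C had 359 and 346 counts, 0.12 (−0.10 to 0.34). ATG4B took 57.6% (55.5 to 59.6) of ATG4 counts in DMSO and 56.7% (54.5 to 58.9) in omipalisib, and its intervals in both libraries overlapped. Intervals of shares are exact Clopper-Pearson intervals at 95% and also cover counting error only.

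**Figure D3:**
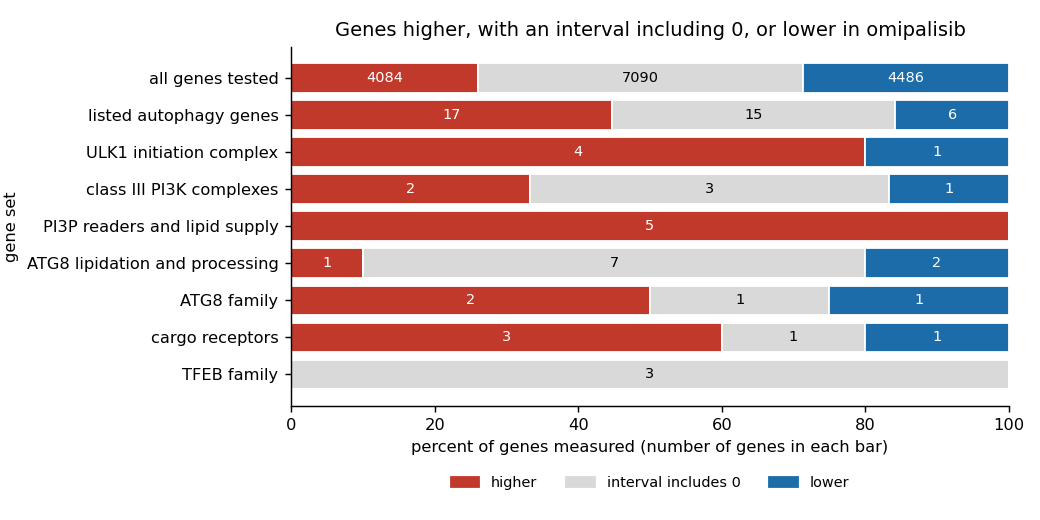
Percent of genes (horizontal axis) called higher, lower or with an interval including 0, for all genes tested, the 38 autophagy genes and the role groups (vertical axis); numbers in the bars are genes. All 5 genes for PI3P readers and lipid supply were higher, and TFEB, TFE3 and MITF, drawn as the TFEB family without TFEC, had intervals including 0 with the scaling used here.

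The ATG8 family, here 4 genes without MAP1LC3A, had the widest range of log2 ratios of the groups. GABARAPL1 (chromosome 12, 10212458 to 10223128) was higher, MAP1LC3B was higher by less, GABARAPL2 had an interval that included 0, and GABARAP was lower. GABARAPL1, a GABARAP relative also known as GEC1, had 338 counts in DMSO and 547 in omipalisib, or 13.0 and 23.8 CPM. Its log2 ratio of 0.87 (0.67 to 1.07) lay at percentile 93.8 of all genes tested. MAP1LC3B, the LC3B protein used as a marker of autophagosomes, had 2707 and 2835 counts, for a scaled log2 ratio of 0.24 (0.16 to 0.32). GABARAPL2, also called GATE-16, had 1600 and 1477 counts, 0.06 (−0.04 to 0.16), and with scaling by total counts 0.11, where the interval lay above 0. GABARAP itself had 304 and 217 counts, for a scaled log2 ratio of −0.31 (−0.57 to −0.06). Among these 4 genes the closest paralogues therefore stood farthest apart, since GABARAP minus GABARAPL1 was −1.18 (−1.50 to −0.86). All 6 pairs of these genes differed beyond counting error, the least apart being MAP1LC3B minus GABARAPL2 at 0.18 (0.05 to 0.31).

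Among the 4 listed ATG8 genes the mix of transcripts shifted, while MAP1LC3B and GABARAPL2 kept their order at the top. GABARAPL1 took 6.83% (6.14 to 7.57) of the counts of these genes in DMSO and 10.8% (9.94 to 11.7) in omipalisib. GABARAP took 6.14% (5.49 to 6.85) and 4.28% (3.74 to 4.87). By count, GABARAPL1 was thus above GABARAP in omipalisib beyond counting error, while in DMSO their shares overlapped. Shares of counts are not scaled by length, and per kilobase GABARAP was above GABARAPL1 in DMSO and below it in omipalisib. MAP1LC3B held 54.7% and 55.9%, and GABARAPL2 32.3% and 29.1%. Per kilobase of exon, the level of MAP1LC3B was 20.7 CPM in DMSO and 24.5 in omipalisib, and that of GABARAPL2 was 20.5 and 21.3. That of GABARAP was 6.01 and 4.84, and that of GABARAPL1 was 3.22 and 5.87. MAP1LC3A, an ATG8 gene outside the list, had 36.8 and 76.3 CPM per kilobase, above MAP1LC3B in both libraries. By count it lay below GABARAPL2 in DMSO (1100 against 1600) and above it in omipalisib (2021 against 1477). A level per length divides by the union of a gene's annotated exons, so it is low for genes with long exons that these cells do not use. GABARAP overlaps a readthrough gene over 35.4% of its length on its strand, and fragments that fit both genes are not counted, so its level is uncertain. MAP1LC3B has a near-identical copy, MAP1LC3B2, with 78 and 64 counts, and fragments that align to both are left out as well.

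**Figure D4:**
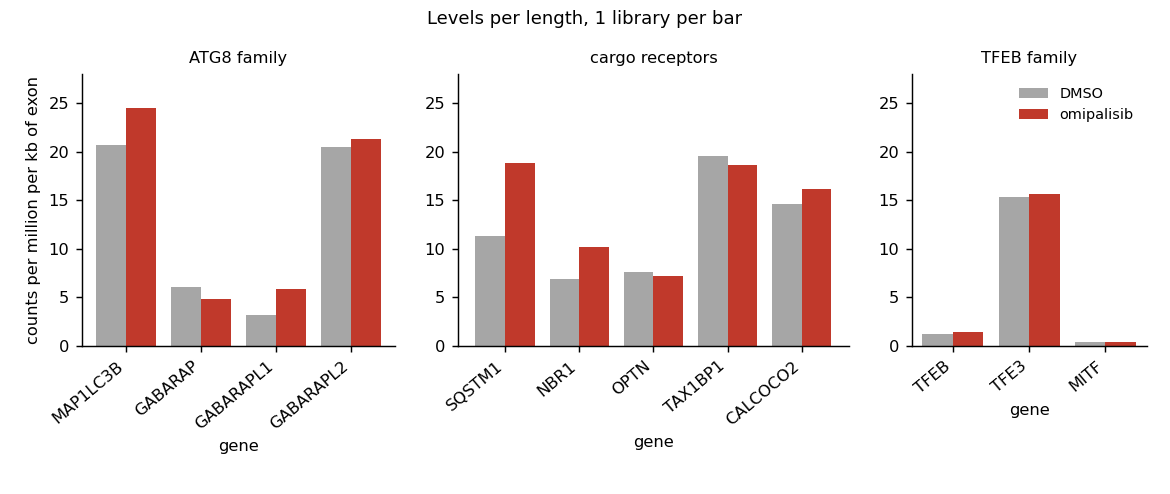
Level per length, in CPM per kilobase of exon (vertical axis, from 0), in the DMSO library (grey) and the omipalisib library (red). Genes are the ATG8 family without MAP1LC3A, the cargo receptors and the TFEB family without TFEC, with 1 library per bar. GABARAPL1 went from 3.22 to 5.87 and SQSTM1 from 11.3 to 18.9, and TFE3 stood far above TFEB and MITF in both libraries.

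Of the cargo receptors, SQSTM1, NBR1 and CALCOCO2 were higher, TAX1BP1 was marginally lower and OPTN had an interval that included 0. SQSTM1 (chromosome 5, 179806398 to 179838078) encodes p62, which gathers ubiquitin-tagged cargo and is itself degraded by autophagy. It had 2209 counts in DMSO and 3265 in omipalisib, or 85.2 and 142 CPM, and a log2 ratio of 0.74 (0.66 to 0.82) at percentile 91.4 of all genes tested. NBR1, a receptor with the same domain layout that works with p62, had 1510 and 1965 counts, for a scaled log2 ratio of 0.55 (0.46 to 0.65). With scaling by total counts NBR1 reached 0.60, past the 1.5-fold threshold. CALCOCO2, the receptor NDP52 of bacteria and damaged mitochondria, had 3157 and 3104 counts, 0.15 (0.08 to 0.22). TAX1BP1, a relative of CALCOCO2, had 4640 and 3924 counts, for a scaled log2 ratio of −0.07 (−0.13 to −0.0064). With scaling by total counts its interval included 0, at −0.02 (−0.08 to 0.04). OPTN, optineurin, had 1012 and 852 counts, −0.07 (−0.21 to 0.06).

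SQSTM1 and NBR1 had higher log2 ratios than each of the other receptors, beyond counting error. The difference SQSTM1 minus CALCOCO2 was 0.59 (0.48 to 0.69), SQSTM1 minus OPTN 0.81 (0.66 to 0.96), and SQSTM1 minus NBR1 0.18 (0.06 to 0.31). OPTN minus TAX1BP1 was −0.0064 (−0.15 to 0.14), within counting error. Of the receptors' fragments, SQSTM1 held 17.6% (17.0 to 18.3) in DMSO and 24.9% (24.2 to 25.7) in omipalisib, while TAX1BP1 held 37.0% (36.2 to 37.9) and 29.9% (29.1 to 30.7). Per kilobase, TAX1BP1 was the most abundant receptor in DMSO at 19.5 CPM with SQSTM1 at 11.3. In omipalisib SQSTM1, at 18.9, and TAX1BP1, at 18.6, were at about the same level per kilobase.

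None of TFEB, TFE3 and MITF, the TFEB-family genes among the 38, was called higher or lower. TFEB had 174 and 188 counts, for a scaled log2 ratio of 0.29 (−0.02 to 0.59). Its interval included 0 as reported and excluded 0 with scaling by total counts (0.33, 0.03 to 0.64) and with the DMSO library thinned (0.32, 0.0008 to 0.64). TFE3 had 1673 and 1511 counts, 0.03 (−0.07 to 0.13), and MITF had 82 and 73 counts, 0.0071 (−0.47 to 0.48). TFE3 was the most counted of these 3 genes, with 86.7% (85.1 to 88.2) of their counts in DMSO and 85.3% (83.5 to 86.9) in omipalisib. Per kilobase its level was 15.3 CPM in DMSO and 15.6 in omipalisib, against 1.19 and 1.45 for TFEB and 0.44 in both for MITF. The counts of MITF allow a level up to 1.39-fold higher in omipalisib, so a smaller rise was not detectable at this depth.

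Stretches upstream of the start are printed for the pair of members with the highest intervals, GABARAPL1 and SQSTM1, and for the pair whose windows hold the E-box core CACGTG, the letters that TFEB, TFE3 and MITF bind, as do other factors of their class. The second pair was chosen after its values were seen. Sequences are from RefSeq on GRCh38, 5′ to 3′ on the gene's strand, and capitals mark CACGTG in ATG14 and ATG3 and the cAMP response element TGACGTCA in GABARAPL1. The GABARAPL1 stretch is chr12:10212847-10212876 on the plus strand, SQSTM1 chr5:179806343-179806392 plus, ATG14 chr14:55411831-55412080 minus and ATG3 chr3:112561963-112561992 minus. All end at the base before a RefSeq start. The ATG3 and GABARAPL1 stretches lie in exons of longer annotated transcripts, as do the last 28 bases of ATG14, and SQSTM1 has RefSeq starts farther downstream too.
GABARAPL1: TGACGTCAcagcccgacgcgccacccagct
SQSTM1: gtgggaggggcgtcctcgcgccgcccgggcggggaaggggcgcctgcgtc
ATG14: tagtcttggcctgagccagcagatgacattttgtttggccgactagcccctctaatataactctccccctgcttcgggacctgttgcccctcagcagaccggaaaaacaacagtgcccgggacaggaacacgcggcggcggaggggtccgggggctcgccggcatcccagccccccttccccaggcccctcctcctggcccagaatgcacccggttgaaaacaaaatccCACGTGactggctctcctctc
ATG3: cctttctcacgtCACGTGccgggagagtct

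Windows of 250 bases before to 50 after a start were listed for 35 of the 38 genes, and both strands were searched. The E-box core CACGTG was in the windows of 2 members, ATG14 (log2 ratio 0.40) and ATG3 (−0.25), which differed in opposite directions. It was in those of 8.77% of the 27305 genes with a window. The longer core TCACGTG, which contains the E-box core, was in the same 2 members and in 4.49% of genes, and the full CLEAR consensus was in none of the members and in 0.421% of genes. The FOXO letters GTAAACA were in 1 member, CALCOCO2, and in 4.19% of genes. The ATF4 letters TGATGNAA were in none of the members and in 4.46% of genes. The NRF2 letters TGACNNNGC were in ATG101, MAP1LC3B and CALCOCO2, and in 16.1% of genes. TGACGTCA, added after the GABARAPL1 window was seen, was in GABARAPL1 and MITF and in 2.25% of genes. Matching letters are not shown to be bound sites, and a window without them says nothing of the factor elsewhere.

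Other lists of the pathway, outside the 38 genes, leaned the same way only in part. The background for the calls in each of these lists was 26.1% higher and 28.6% lower among all genes tested. Autophagosome formation had 13 measured genes beside the members, and 6 of these were higher, 1 was lower and the median log2 ratio was 0.10. MAP1LC3A, the gene for LC3A, had 1100 and 2021 counts, for a scaled log2 ratio of 1.05 (0.94 to 1.16). WDR45, a relative of the WIPI genes, had 461 and 665 counts, 0.70 (0.53 to 0.88), and overlaps another gene on its strand over 14.4% of its length. Fusion with the lysosome had 15 genes, with 5 called higher and 4 called lower around a median of 0.0013, near the background. EPG5, a tether for fusion, had 0.45 (0.33 to 0.57), and VPS11, of the HOPS tethering complex, 0.33 (0.23 to 0.44).

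Among 19 receptors for organelles and mitophagy genes, the calls were 10 higher and 6 lower and the median was 0.13. CALCOCO1, a receptor for endoplasmic reticulum and Golgi and a relative of CALCOCO2 and TAX1BP1, had 761 and 1782 counts, for a scaled log2 ratio of 1.40 (1.28 to 1.53). PINK1, the kinase that flags damaged mitochondria, had 410 and 593 counts, 0.71 (0.52 to 0.89).

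Nutrient control of ULK1 and TFEB had 22 measured genes, and here 8 were called higher and 5 lower (median 0.05). PPP3CA, a catalytic subunit of calcineurin, which dephosphorylates TFEB, had 0.24 (0.17 to 0.31), and RRAGB, a Rag GTPase, had 0.46 (0.13 to 0.78). RRAGD, a Rag GTPase gene known as a target of the TFEB family, had 79 and 77 counts, 0.14 (−0.34 to 0.61). Lysosomal genes of the CLEAR network, the set that TFEB is known to activate, went both ways: 24 were measured, 10 called higher and 12 lower, and the median was −0.07. The protease gene CTSF had 373 and 742 counts, 1.17 (0.98 to 1.35). Among 11 further transcription factors of autophagy genes, 2 were higher and 4 lower. FOXO4 had 0.80 (0.60 to 0.999) and FOXO3 0.31 (0.22 to 0.41), while FOXO1 had −0.17 (−0.38 to 0.03). ATF4 had −0.11 (−0.15 to −0.07), and the cell cycle factor E2F1 had −0.74 (−0.85 to −0.64). TFEC, the fourth member of the TFEB family in mammals, had 26 and 3 counts, −2.75 (−5.31 to −1.24).

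**Figure D5:**
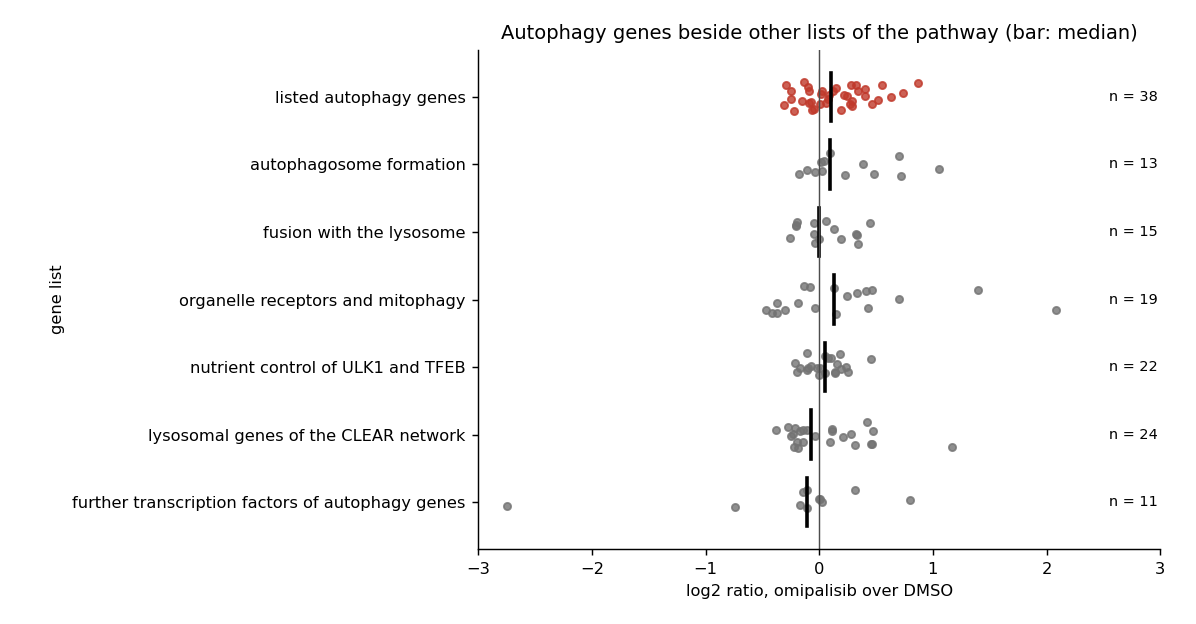
Log2 ratio of omipalisib over DMSO (horizontal axis) of the 38 autophagy genes (red) and of the measured genes of 6 other lists of the pathway (grey), with a black bar at each median and vertical jitter for display. The medians lie between −0.10 for further transcription factors and 0.13 for organelle receptors and mitophagy, and TFEC is the lowest point, at −2.75.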

How the data were processed

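RNA was sequenced in 1 library of OCI-AML3 in DMSO and 1 in omipalisib, as strand-specific libraries of total RNA, per the labels' protocols. The authors deposited raw counts per gene. Per the file headers, featureCounts 2.0.1 assigned read pairs to the exons of genes with the reverse-strand setting 2. No aligner and no step of poly(A) selection is given in the sources used here. While hg19 and GRCh37 are named per the submitters' processing notes, 58468 of the 58516 listed genes that are in GENCODE release 29 overlap their position there on GRCh38, so coordinates are given as GRCh38.

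Libraries were scaled over all genes with TMM factors (edgeR 4.0.16, R 4.3.3). The log2 ratio was taken after adding 0.5 to each count, and 95% limits were converted from exact Clopper-Pearson limits on the fraction of both libraries' counts found in omipalisib. In CPM, 3 counts equal 0.116 for DMSO and 0.131 for omipalisib. Differences between 33 pairs of members are ratios of ratios with a normal-approximation counting interval, not adjusted for their number. The pairs are all those within families of relatives, and a few chosen across other members. In each chosen pair the log2 ratios had opposite signs, and other such pairs were not compared, so they do not show how often partners differ. The sources used here name no molecular identifiers, so fragments need not be independent molecules. No model was fitted, since each group has 1 library. The interval code was checked on simulated data.

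All members were named. From other lists, genes past 1.5-fold or otherwise the 2 with intervals farthest from 0 were named, with RRAGD, FOXO1, FOXO3, ATF4 and TFEC in any case; 1 gene that this rule names is not reported here. Members and lists were chosen with earlier results of these data known. The files list 11 copies of members, 9 of them at 0 in both libraries; besides MAP1LC3B2, ATG12P1 had 30 and 14 counts. The 9 alternatives were other scalings, count minimums, an added count of 1, thinning, removal of a length trend and leaving out mitochondrially encoded genes.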

Additional observations from a re-analysis of the deposited data

How the results depend on the processing

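Under the 9 alternatives no member's log2 ratio left its own counting interval or changed sign while called. Scaling by total counts, which moved the median of all genes by 0.049, gave 20 members higher and 5 lower, and 4748 and 3837 of the 15660 genes tested, against 4084 and 4486 as reported: BECN1, GABARAPL2 and TFEB became higher and TAX1BP1 lost its call. Scaling by DESeq2 size factors (DESeq2 1.42.0), which moved it by −0.038, gave 17 and 7 members, and 3581 and 5024 genes tested, with ATG4B lower, and put the median of TFEB, TFE3 and MITF at −0.012, against 0.03 as reported; none of these 3 was called in either. Thinning the DMSO library gave 18 and 6 members, and 3897 and 4505 of 15492 genes tested, with TFEB higher. The other 6 alternatives kept the call of all 38 members. The count at 1.5-fold higher was 4 with scaling by total counts (NBR1 added), 2 with thinning (WIPI1 lost) and 3 otherwise, and the median of the 38 genes ran from 0.06 to 0.15. No paired analysis was possible because each group has 1 library. Depth limits MITF, WIPI1, TFEB, ATG10 and GABARAP most, the members with the widest intervals, and spread between cultures was not measured.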

Other observations

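In lists beside the 38 genes, and named after their values were seen, mitophagy receptors and lysosomal genes each went in both directions. Among the receptors in the outer mitochondrial membrane, BNIP3 had 938 counts in DMSO and 601 in omipalisib, a log2 ratio of −0.47 (−0.62 to −0.32), and FUNDC1 had 338 and 224 counts, −0.42 (−0.67 to −0.17). BNIP3L, the close relative of BNIP3 also called NIX, had 2008 and 2457 counts, 0.46 (0.38 to 0.55). TBK1, the kinase that phosphorylates cargo receptors, had 2012 and 1380 counts, −0.37 (−0.47 to −0.27). NCOA4, the receptor that delivers ferritin to the lysosome, had 17130 and 20196 counts, 0.41 (0.38 to 0.44).

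Subunits of the lysosomal proton pump were lower in all 4 listed genes, from ATP6V0D1 at −0.28 (−0.37 to −0.18) to ATP6V1B2 at −0.11 (−0.15 to −0.06). Of all genes tested 28.6% were lower. These 4 genes were singled out after their values were seen, and the other subunits of the pump were not listed. Several hydrolase genes were higher, among them GAA at 0.47 (0.41 to 0.54), TPP1 at 0.46 (0.41 to 0.51) and SGSH at 0.46 (0.30 to 0.62). GLA, another hydrolase gene, was lower, at −0.38 (−0.47 to −0.28). ATG16L2, a relative of ATG16L1, had 4056 and 5024 counts, 0.48 (0.42 to 0.54), against 0.08 (−0.05 to 0.21) for ATG16L1.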
